A study of Mus musculus with 12 samples.

Results

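Glycerol handling and triglyceride synthesis in inguinal white adipose tissue (iWAT) were followed through 10 genes, chosen by symbol for their place in the pathway: Gk, Gpd1, Gpd2, Aqp7, Pck1, Gpam, Agpat2, Lpin1, Dgat1 and Dgat2. All 10 were found among the 23420 genes of the count table by symbol, Gk under its older symbol Gyk. All 10 were also among the 15306 genes that passed the filter on low counts. The libraries came from iWAT, a subcutaneous fat pad in which thermogenic beige adipocytes form in cold, of C57BL/6 male mice at 10 weeks of age. Every mouse carried loxP-flanked HIF2a alleles on both chromosomes. Those without Cre are called WT and those with Adipoq-Cre, which is active in adipocytes, are called HIF2α AKO, so that the presence of Cre and the loss of HIF2α cannot be told apart. Both genotypes were housed either at 30 °C for 1 week, which is thermoneutral (TN), or in cold of 4 to 6 °C for 3 days, with 3 libraries in each of the 4 groups. The design asks what cold does to these genes, and whether adipocyte HIF2α, an oxygen-sensitive transcription factor, alters that response.

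Triglyceride is made from fatty acids and glycerol 3-phosphate. White adipocytes obtain glycerol 3-phosphate mainly from glucose, through dihydroxyacetone phosphate, or from lactate and amino acids, through glyceroneogenesis, and have little glycerol kinase with which to reuse the glycerol that lipolysis sets free. Brown and beige adipocytes break down and rebuild triglyceride at the same time, and glycerol kinase is known to be more abundant in them. The fatty acids are then added in turn by glycerol-3-phosphate acyltransferases, by acylglycerol-3-phosphate acyltransferases and, after a phosphatase has removed the phosphate, by diacylglycerol acyltransferases.

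The libraries held between 22368316 and 35204631 counts on genes. Levels are given as CPM, counts scaled to the library's total on genes after the TMM correction for library composition. The mice of a group were not equal in adipocyte transcripts. TN WT replicate 2 was the lowest of its group for 10 of the 10 genes, and TN HIF2α AKO replicate 1 was the lowest of its group for 7. In these libraries the summed CPM of 6 adipocyte markers (Adipoq, Plin1, Cidec, Fabp4, Lep and Lipe) were 4298 and 6433, the lowest of the 12 libraries. In bulk tissue, fewer cells of a type and less RNA per cell cannot be told apart. The summed CPM of 10 skeletal muscle markers were 1476 in TN HIF2α AKO replicate 2 and 1190 in cold HIF2α AKO replicate 1, against 11.6 to 89.9 in the others, and 6 epithelial markers summed to 253 in TN WT replicate 3 against at most 11.3 elsewhere. Epas1, which encodes HIF2α, had 576, 562 and 743 CPM in the WT and 986, 743 and 749 CPM in the HIF2α AKO libraries from cold. This level in cold was thus no lower where the label is HIF2α AKO, and at TN its mean was 360 CPM in WT and 348 CPM in HIF2α AKO. The study reported by RT-qPCR that the mRNA of HIF2α was lower in iWAT of its knockout mice. Genotypes stand here as the labels give them.

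Most of the 10 genes were higher in cold, and Gk changed by far the most. With the genotypes averaged, 8 of the 10 genes were higher in cold than at TN and 0 were lower, at an adjusted p under 0.05 in edgeR's quasi-likelihood test over all genes. In this comparison 48.8% of all genes tested were called and 24.8% were called higher in cold. The median log2 fold change of the 10 genes was 1.80, against -0.05 for all genes. The genes not called were Pck1 and Dgat2. For 7 of the 10 genes, all 6 cold libraries lay above all 6 TN libraries, which was so for 16% of all genes tested. In WT alone 7 of the 10 were called, all higher in cold, with 21.3% of all genes called and 15.6% called higher. In HIF2α AKO 7 of the 10 were called, again all higher, with 27% of all genes called and 15.6% called higher. The medians within genotypes were 1.91 in WT and 1.70 in HIF2α AKO.

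**Figure D1:**
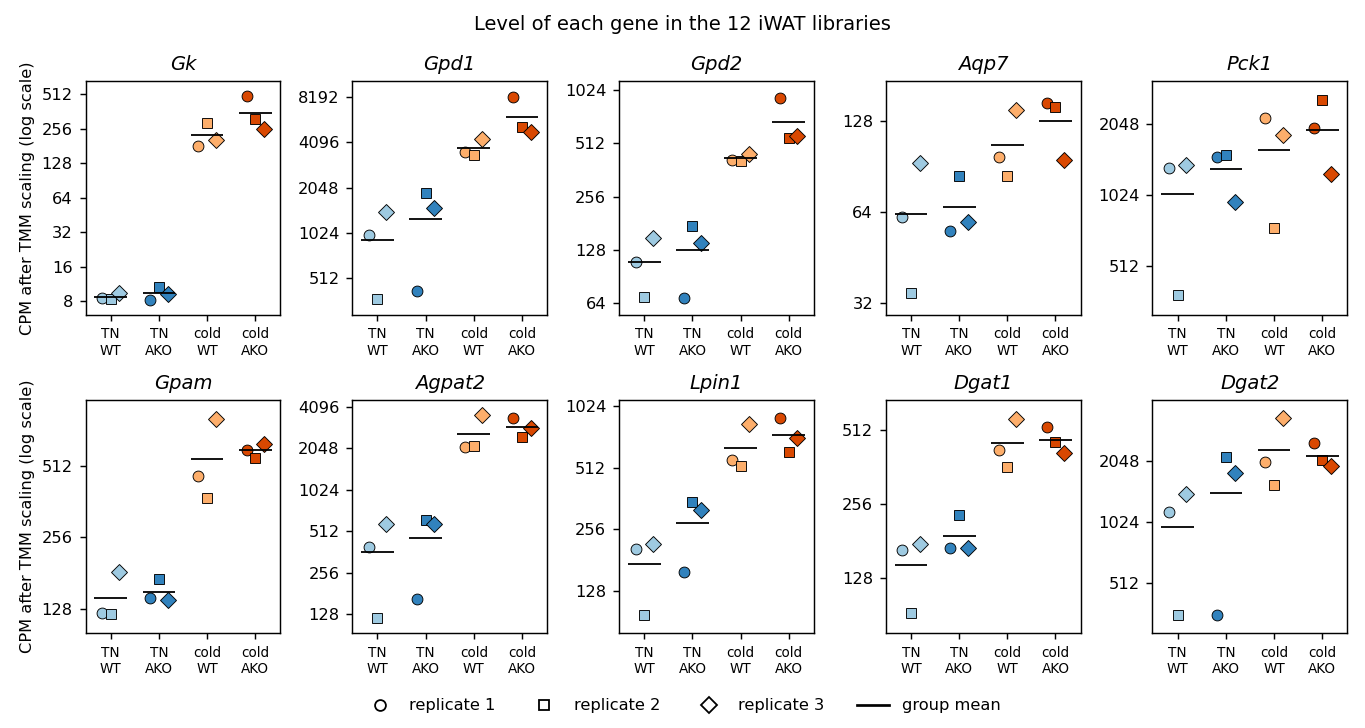
Each panel plots the CPM after TMM scaling of a gene on a log2-spaced axis, with 1 point for each of the 12 libraries, arranged by temperature and then genotype (AKO stands for HIF2α AKO), and a line at each group mean. Gk lay between 8.22 and 10.7 CPM at TN and between 182 and 497 in cold, whereas the TN and cold libraries overlapped for Aqp7, Pck1 and Dgat2.

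Glycerol is phosphorylated by glycerol kinase, the product of Gk (chrX:85701937-85776819, minus strand, GRCm38). Its levels at TN, for replicates 1 to 3 in order, were 8.58, 8.40 and 9.42 CPM in WT and 8.22, 10.7 and 9.22 CPM in HIF2α AKO, against 182, 288 and 205 CPM in WT and 497, 309.9 and 257 CPM in HIF2α AKO in cold. The TN libraries lay close together, at 9.09 ± 0.921 CPM (SD, n = 6), on 211 to 341 counts each, and every cold library was far above them. The log2 fold change was 4.96 (SE 0.20, adjusted p = 3.58e-07), which is 31.1-fold, and Gk had the lowest p of all 15306 genes tested. It was 4.68 in WT (SE 0.27, adjusted p = 1.99e-05) and 5.24 in HIF2α AKO (SE 0.28, adjusted p = 1.55e-05), or 25.6-fold and 37.7-fold. Of its paralogs, Gk2 had 0 counts in all 12 libraries, where a count of 0 allows up to 3 counts per library. Gk5 had 0.825 CPM per kb of exon at TN and 0.99 in cold, with a log2 fold change of 0.25 that was not called (adjusted p = 0.0837).

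The Gk promoter is shown because Gk changed most of the 10 genes. The window runs from 250 bases before to 50 bases after the annotated RefSeq start (GRCm38.p6, chrX:85776770-85777069, minus strand, written 5′ to 3′ along the gene). Capitals mark matches to ACGTG, the core of the hypoxia response element that HIF proteins bind, and to TGACGT, a cyclic AMP response half-site, each searched on both strands. Here ACGTG matched on both strands within 1 run of capitals, which begins 58 bases before the start, and TGACGT matched 4 bases before the start, with no overlap between them.
Gk: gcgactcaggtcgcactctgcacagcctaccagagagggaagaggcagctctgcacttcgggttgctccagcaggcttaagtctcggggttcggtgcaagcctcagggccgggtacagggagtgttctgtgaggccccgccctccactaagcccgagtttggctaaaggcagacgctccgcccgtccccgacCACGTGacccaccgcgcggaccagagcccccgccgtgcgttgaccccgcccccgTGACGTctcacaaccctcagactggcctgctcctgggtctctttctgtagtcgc

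Gpd1 and Gpd2, which encode glycerol 3-phosphate dehydrogenases, both rose in cold. Gpd1 (chr15:99717515-99725005, plus strand) encodes the cytosolic enzyme that interconverts dihydroxyacetone phosphate and glycerol 3-phosphate. Its TN libraries held 993, 375 and 1408 CPM in WT and 419, 1896 and 1489 CPM in HIF2α AKO, and the cold libraries held 3552, 3381 and 4334 CPM in WT and 8149, 5142 and 4797 CPM in HIF2α AKO. All cold libraries were above all TN libraries, and the lowest TN values were those of TN WT replicate 2 and TN HIF2α AKO replicate 1. The log2 fold change was 2.14 (SE 0.39, adjusted p = 0.00169), or 4.39-fold. Within WT it was 2.02 (adjusted p = 0.0267), a call lost without TN WT replicate 1 (adjusted p = 0.0720), TN WT replicate 2 (0.0839) or cold WT replicate 3 (0.0791). Within HIF2α AKO it was 2.25 (adjusted p = 0.0156), and this call was lost without cold HIF2α AKO replicate 1 (1.97, adjusted p = 0.0624). Gpd2 (chr2:57237635-57370719, plus strand) encodes the mitochondrial, FAD-linked enzyme that oxidizes glycerol 3-phosphate and passes the electrons to the respiratory chain. For this gene, CPM at TN were 109.7, 69.8 and 150.0 in WT and 68.9, 175 and 141 in HIF2α AKO (replicates 1, 2 and 3), and in cold they were 412, 408 and 449 in WT and 921, 547 and 564 in HIF2α AKO. The groups did not overlap between temperatures, and cold HIF2α AKO replicate 1 was the highest library for both genes. In cold Gpd2 was higher by 2.17 on the log2 scale (SE 0.25, adjusted p = 1.07e-04), or 4.51-fold, with 1.95 in WT and 2.40 in HIF2α AKO. The related Gpd1l had a log2 fold change of -0.12 and was not called (adjusted p = 0.114).

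Of the genes of glycerol export and glyceroneogenesis, Aqp7 was called higher in cold and Pck1 was not. Aqp7 (chr4:41033074-41048139, minus strand) encodes the aquaglyceroporin through which glycerol crosses the adipocyte membrane. Its levels at TN, for replicates 1 to 3 in order, were 61.8, 34.5 and 92.9 CPM in WT and 55.5, 84.2 and 59.5 CPM in HIF2α AKO, against 97.1, 84.2 and 139 CPM in WT and 147, 143 and 95.4 CPM in HIF2α AKO in cold. Cold and TN libraries overlapped, since TN WT replicate 3 and TN HIF2α AKO replicate 2 reached the level of the lower cold libraries. The log2 fold change of 0.86 (SE 0.23, adjusted p = 0.0121) was called with the genotypes averaged. It was not called within WT (0.76, adjusted p = 0.113) or within HIF2α AKO (0.95, adjusted p = 0.053). The value within WT passed without TN WT replicate 3 (1.15, adjusted p = 0.0285) and with limma voom (adjusted p = 0.0489). The value within HIF2α AKO passed in DESeq2 on all libraries (adjusted p = 0.0169), with limma voom (0.0066), in edgeR (0.0180) and DESeq2 (3.06e-04) on the groups compared only, and when TN WT replicate 2 (0.0219), TN WT replicate 3 (0.0296), TN HIF2α AKO replicate 2 (0.0442), cold WT replicate 3 (0.0453) or cold HIF2α AKO replicate 3 (0.0452) was left out. Pck1 (chr2:173153048-173159273, plus strand) encodes cytosolic phosphoenolpyruvate carboxykinase, a key enzyme of glyceroneogenesis in fat. For Pck1, TN libraries held 1339, 382 and 1368 CPM in WT and 1488, 1513 and 956 CPM in HIF2α AKO, and the cold libraries held 2189, 738 and 1846 CPM in WT and 1979, 2589 and 1261 CPM in HIF2α AKO. The groups overlapped widely, and replicate 2 was the lowest library of WT at both temperatures. Its log2 fold change was 0.59 (SE 0.35, 95% interval -0.18 to 1.37, adjusted p = 0.182). The mitochondrial isoenzyme Pck2 had -0.32 (adjusted p = 0.0621) and Pcx, which encodes pyruvate carboxylase and whose span overlaps that of Lrfn4, had 0.59 (adjusted p = 0.14).

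Gpam and Agpat2, of the first and the second acylation, rose in cold. Gpam (chr19:55067268-55127238, minus strand) encodes the mitochondrial glycerol-3-phosphate acyltransferase of the first acylation. Its CPM at TN were 123, 123 and 183 in WT and 142, 172 and 140.3 in HIF2α AKO (replicates 1, 2 and 3), and in cold they were 463, 374 and 803 in WT and 598, 552 and 631 in HIF2α AKO. All cold libraries were above all TN libraries. Gpam was higher in cold by a log2 fold change of 1.95 (SE 0.19, adjusted p = 3.16e-05), or 3.87-fold, with 1.94 in WT and 1.97 in HIF2α AKO. Agpat2 (chr2:26593057-26604417, minus strand) encodes the acyltransferase of the second acylation, whose loss causes lipodystrophy. Here levels at TN, for replicates 1 to 3 in order, were 393, 122 and 575 CPM in WT and 165, 621 and 578 CPM in HIF2α AKO, against 2102, 2124 and 3542 CPM in WT and 3391, 2488 and 2860.1 CPM in HIF2α AKO in cold. TN WT replicate 2 and TN HIF2α AKO replicate 1 were well below the other TN libraries, and the cold libraries were above all of them. Agpat2 was higher in cold by a log2 fold change of 2.76 (SE 0.41, adjusted p = 4.90e-04), or 6.76-fold, the largest of the 10 genes after Gk. The annotated span of Agpat2 overlaps that of Egfl7, and as the strand setting of the counting is not given in the sources used here, reads from the overlap cannot be told apart.

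Lpin1 (chr12:16535669-16610966, minus strand) encodes lipin 1, a phosphatase that turns phosphatidate into diacylglycerol. Replicate by replicate, its TN libraries held 205, 97.7 and 217 CPM in WT and 159, 349 and 318 CPM in HIF2α AKO, and the cold libraries held 559, 522 and 836 CPM in WT and 899, 609.6 and 714 CPM in HIF2α AKO. The cold libraries were above all TN libraries, with a log2 fold change of 1.66 (SE 0.25, adjusted p = 5.43e-04), or 3.15-fold. It was 1.88 in WT (adjusted p = 0.00536) and 1.43 in HIF2α AKO (adjusted p = 0.0155). The call in HIF2α AKO was lost without TN HIF2α AKO replicate 1 (adjusted p = 0.0567) or cold HIF2α AKO replicate 1 (0.0650). The paralogs Lpin2 (-0.09, adjusted p = 0.46) and Lpin3 (0.34, adjusted p = 0.162) were not called.

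The last step is carried out by a pair of unrelated enzymes, of which DGAT2 is tied mainly to newly made fatty acids and DGAT1 also to fatty acids that lipolysis has released. Dgat1 (chr15:76502015-76511953, minus strand) was higher in cold. Measured CPM at TN were 166, 91.6 and 177 in WT and 169.7, 232 and 169 in HIF2α AKO (replicates 1, 2 and 3), and in cold they were 427, 364 and 568 in WT and 528, 458 and 414 in HIF2α AKO. The temperatures did not overlap, and the log2 fold change was 1.47 (SE 0.18, adjusted p = 1.34e-04), or 2.77-fold, with 1.65 in WT and 1.29 in HIF2α AKO. For Dgat2 (chr7:99153658-99182719, minus strand), levels at TN, for replicates 1 to 3 in order, were 1140.2, 357 and 1412 CPM in WT and 359, 2134 and 1775 CPM in HIF2α AKO, against 2028, 1557 and 3328 CPM in WT and 2507, 2073 and 1921 CPM in HIF2α AKO in cold. The TN libraries spread widely, with TN WT replicate 2 and TN HIF2α AKO replicate 1 below all others and TN HIF2α AKO replicates 2 and 3 within the cold range. The log2 fold change was 0.93 (SE 0.43, 95% interval -0.02 to 1.87, adjusted p = 0.0935) and was not called by edgeR, whereas DESeq2 on all libraries gave 0.94 (adjusted p = 0.0405). Without both low TN libraries the edgeR value with the genotypes averaged was 0.49. Within WT edgeR gave 1.25 (adjusted p = 0.152), with cold libraries above TN libraries, and DESeq2 on the groups compared only called it (adjusted p = 0.0449). Within HIF2α AKO edgeR gave 0.61 (adjusted p = 0.462), and the groups overlapped.

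The adipocyte markers were themselves higher in cold, so the levels were also read against them. Their summed CPM were between 4298 and 11552 at TN and between 14199 and 27546 in cold, a difference in mean log2 of 1.31. Of the 6 markers, Plin1, Cidec, Fabp4 and Lipe were called higher in cold, while Adipoq (0.21, adjusted p = 0.478) and Lep (0.79, adjusted p = 0.182) were not, and 0 were called lower. Fabp4 alone made up between 45.6 and 52.7% of the sum at TN and between 60.5 and 66.3% in cold. Relative to the sum, and with no test, Gk was 3.62 higher in cold on the log2 scale, Agpat2 1.67 and Gpd2 0.93, and for these 3 genes all cold libraries were above all TN libraries, Gpd2 by a narrow margin. The other 7 overlapped. The difference was 1.03 for Gpd1, 0.62 for Gpam, 0.41 for Lpin1 and 0.18 for Dgat1, and it was negative for Dgat2 (-0.13), Aqp7 (-0.41) and Pck1 (-0.69). Relative to Adipoq alone, all 10 differences were positive, from 0.40 for Pck1 to 4.71 for Gk, and 7 genes did not overlap. The share of all genes without overlap was not counted on either of these scales, so the counts of genes without overlap have no background here. Markers of other cell types were read in the same comparison, in which 3669 of all 15306 genes were called lower in cold and 3798 higher. Their lists are short, so the counts of markers called are given beside these numbers and not read further. All 6 lymphocyte markers were called lower in cold, with summed CPM of 859 to 1432 at TN and 440.0 to 792 in cold, and so were 3 of 5 progenitor markers, with 2224 to 2885 at TN and 1420.3 to 1958 in cold. Macrophage markers were called lower for 2 of 5, with overlapping sums of 524 to 993 at TN and 550 to 914 in cold. Endothelial markers were called higher for 2 of 5, with sums of 700.0 to 874 at TN and 865 to 977 in cold. The part of the cell types of the tissue in the differences between temperatures was not tested.

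**Figure D2:**
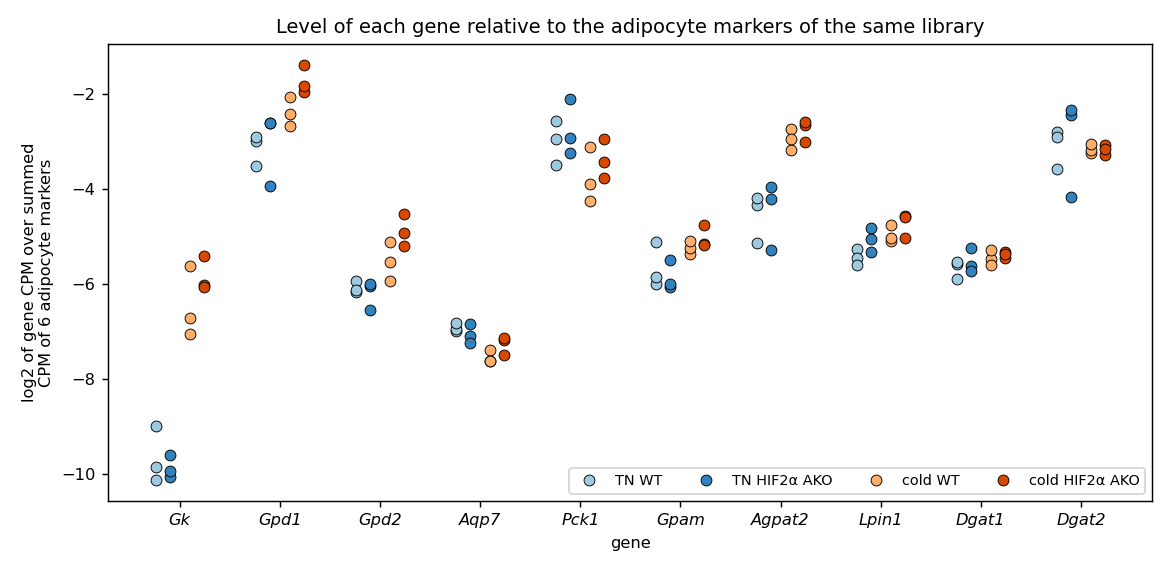
The log2 ratio of each gene's CPM to the summed CPM of the 6 adipocyte markers in the same library is plotted for the 10 genes, with 1 point per library, coloured by group. Gk lay between -10.14 and -9.00 at TN and between -7.07 and -5.42 in cold, whereas Aqp7, Pck1 and Dgat2 had lower means in cold on this scale.

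Ratios within a library do not depend on its scaling, apart from the small prior count. They are not per length, so only their change is read. A set of 4 ratios was compared between temperatures with exact two-sided permutation tests that exchange the temperature labels within each genotype, over 400 arrangements, so that the smallest p is 0.005. The ratio of Gk to Aqp7 rose by 4.02 on the log2 scale, from a range of -3.29 to -2.03 at TN to a range of 0.56 to 1.77 in cold (exact permutation p = 0.005, adjusted over the 4 ratios 0.01, higher in 6 of 6 cold libraries than in any TN library). The ratio of Gk to Pck1 rose by 4.30, from between -7.49 and -5.50 to between -3.58 and -1.36 (p = 0.005, adjusted 0.01 by the same exact test). Gk alone ran from 8.22 to 10.7 CPM at TN and from 182 to 497 in cold. That gap is wider on the log2 scale than the whole range of Aqp7 (34.5 to 147 CPM) or Pck1 (382 to 2589 CPM). Both ratios with Gk therefore had to separate the temperatures, and their p-values add no support to the change of Gk itself. The ratio of Gpd1 to Gpd2 was 3.05 ± 0.43 at TN and 3.15 ± 0.09 in cold (SD, n = 6 each, exact permutation p = 0.555). The ratio of Dgat2 to Dgat1 was 2.57 ± 0.88 at TN and 2.26 ± 0.15 in cold (exact permutation p = 0.455, adjusted 0.555). The lowest TN values were those of TN WT replicate 2 (1.96) and TN HIF2α AKO replicate 1 (1.08). Without both, the ratio differed by -0.84, given with no test because the libraries left out are those with its lowest TN values.

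**Figure D3:**
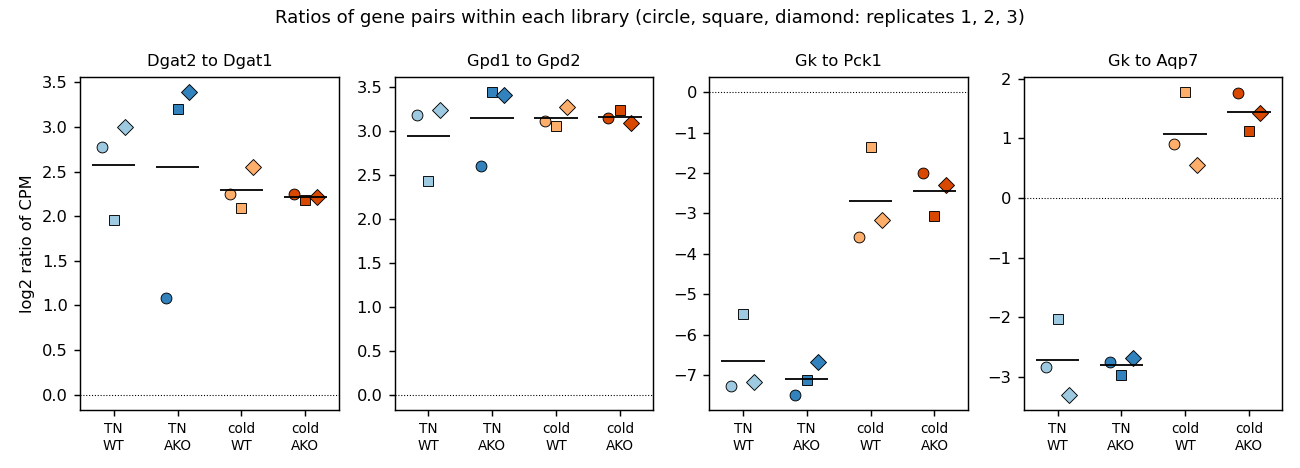
The log2 ratio of CPM within each library is plotted for 4 gene pairs in the 4 groups, with a line at each group mean. Both ratios with Gk were higher in every cold library than in any TN library, while the ratios of Dgat2 to Dgat1 and of Gpd1 to Gpd2 overlapped and spread more at TN than in cold.

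Levels of different genes were compared per length, as mean CPM per kb of exon over the 6 libraries of a temperature. At TN the order was Dgat2 (529), Pck1 (441), Gpd1 (383), Agpat2 (275), Dgat1 (88.8), Lpin1 (36.2), Aqp7 (25.3), Gpam (23.2), Gpd2 (19.6) and Gk (2.01). Among neighbours, the ranges over libraries did not overlap for Gpd2 and Gk alone. Within libraries, the order held in 6 of 6 for Gpd1 over Agpat2, Agpat2 over Dgat1, Dgat1 over Lpin1 and Gpd2 over Gk, and in 4 or 5 of 6 for the other neighbours. In cold the order of these levels was Agpat2 (1848), Gpd1 (1710.0), Dgat2 (988), Pck1 (664), Dgat1 (244), Lpin1 (111), Gpd2 (90.6), Gpam (89.8), Gk (64.0) and Aqp7 (45.9). Here the ranges of neighbours did not overlap for Dgat1 and Lpin1 alone, and the order within libraries held in 6 of 6 for Gpd1 over Dgat2, Pck1 over Dgat1 and Dgat1 over Lpin1, and in 3 to 5 of 6 for the others. Gk was thus the lowest of the 10 per length at TN, and in cold it was above Aqp7 in 5 of 6 libraries.

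The genotypes were compared next, since HIF2α was the factor under study. At an adjusted p under 0.05, 0 of the 10 genes differed between HIF2α AKO and WT in cold, at TN or with the temperatures averaged, and in each of these comparisons 0.00653% of all genes tested were called. DESeq2 and limma voom called 0 of the 10 as well. At an unadjusted p under 0.05, edgeR gave 1 of the 10 in cold, which was Gk, 0 at TN and 1 with the temperatures averaged, beside 451, 446 and 557 of all 15306 genes. In cold 9 of the 10 had a fitted value above 0, with a median of 0.24 against -0.02 for all genes. The exception was Dgat2 (-0.09), which was 0.15 with limma voom and 0.27 without cold WT replicate 3. Without cold WT replicate 2 the values of Pck1, Gpam and Dgat1 were below 0, as was that of Dgat1 without cold HIF2α AKO replicate 1. Gk had 0.66 (SE 0.23, 95% interval 0.14 to 1.17, unadjusted p = 0.0165, adjusted p = 1.00), and its groups overlapped. Gpd1 had 0.68 (SE 0.54, 95% interval -0.50 to 1.86, adjusted p = 1.00) and Gpd2 had 0.68 (SE 0.35, 95% interval -0.08 to 1.44, adjusted p = 1.00). For Gpd1 and Gpd2, the 3 cold HIF2α AKO libraries were above the 3 cold WT libraries in CPM, as was the case for 3.8% of all genes tested. The study listed both genes from these same libraries, so this order is not independent evidence of a direction. It called genes in cold with DESeq2 at P under 0.15 and a limit on fold change, which is looser than the adjusted p under 0.05 used here. Cold HIF2α AKO replicate 1, which held muscle transcripts, was the highest of its group for 8 of the 10 genes. Its summed CPM of 8 thermogenic markers, Ucp1 among them, was 8582, the highest of all libraries. Its adipocyte marker sum of 21327 CPM was the highest of its group. Without this library the values in cold were 0.33 for Gk, 0.40 for Gpd1 and 0.39 for Gpd2. The part of the muscle, thermogenic and adipocyte transcripts in these values was not tested.

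At TN all 10 fitted differences between genotypes were above 0, from 0.07 for Aqp7 to 0.67 for Lpin1, with a median of 0.34 against 0.01 for all genes, and the groups overlapped for each gene. TN HIF2α AKO replicate 2, which also held muscle transcripts, was the highest of its group for 10 of the 10 genes. Its sums of the adipocyte markers (11552 CPM) and of the thermogenic markers (90.6 CPM) were the highest of the TN libraries. TN WT replicate 2, with the lowest adipocyte marker sum, was the lowest of its group for 10. The part of these libraries' cell types in the differences was not tested. Of the 10 differences, 6 changed sign when a single library was left out. Without TN WT replicate 2 the values of Gpd2, Aqp7, Pck1, Gpam and Agpat2 were below 0, without TN HIF2α AKO replicate 2 those of Gk, Gpd2, Aqp7 and Gpam were, and without TN WT replicate 1 that of Gpam was. With limma voom Pck1 was -0.047. The Lpin1 value was 0.38 without TN WT replicate 2. The Lpin1 value had a 95% interval of -0.10 to 1.44 (adjusted p = 0.999). For Gk the difference at TN was 0.09 (95% interval -0.44 to 0.63). The interaction, which asks whether the response to cold differed between genotypes, was called for 0 of the 10 and for 0% of all genes by edgeR, DESeq2 and limma voom, with 0 of the 10 and 327 of all genes at an unadjusted p under 0.05 in edgeR. It was 0.56 for Gk (SE 0.34, 95% interval -0.18 to 1.30, adjusted p = 1.00) and -0.64 for Dgat2 (SE 0.85, 95% interval -2.51 to 1.23, adjusted p = 1.00), the highest and the lowest of the 10. With each library left out in turn, these values ran from 0.24 (without cold HIF2α AKO replicate 1) to 0.83 (without cold WT replicate 2) for Gk, and from -1.10 (without TN HIF2α AKO replicate 1) to -0.23 (without TN WT replicate 2 or TN HIF2α AKO replicate 2) for Dgat2.

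**Figure D4:**
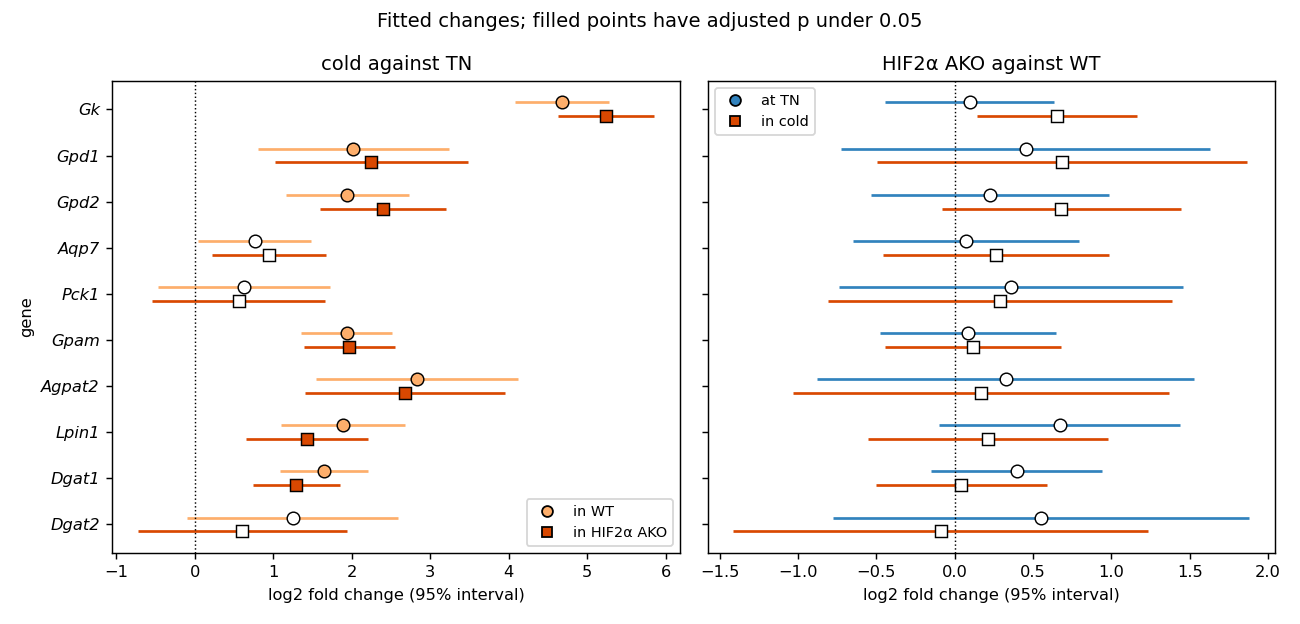
Fitted log2 fold changes of the 10 genes with 95% intervals are plotted on the left for cold against TN within each genotype and on the right for HIF2α AKO against WT at each temperature, on different axis ranges, with filled points where the adjusted p is under 0.05. On the left 7 genes are filled in each genotype and Gk stands apart at 4.68 and 5.24, whereas on the right 0 points are filled.

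The rest of the pathway was covered by a list of 20 other genes, of which 19 were tested. With the genotypes averaged, 8 were higher in cold and 1 was lower, and 10 were not called. The 9 called of 19 are a share near that of all genes in this comparison (48.8%), of which 24.8% were called higher. In WT 7 were higher and 1 was lower, with 21.3% of all genes called, and in HIF2α AKO 6 were higher and 0 lower, with 27% of all genes called. The count of 8 called in WT was 4 without TN WT replicate 2 or cold WT replicate 3, and 5 without TN WT replicate 1 or cold WT replicate 1. The share of all genes called in WT also fell from 21.3%. It was 8.91% without TN WT replicate 2 and 9.47% without cold WT replicate 3. Without TN WT replicate 1 it was 11.7%, and without cold WT replicate 1 it was 16.4%. For genotype at either temperature and for the interaction, 0 of the other genes were called by edgeR, DESeq2 and limma voom. At an unadjusted p under 0.05, edgeR gave 2 in cold, 0 at TN and 1 for the interaction, beside 451, 446 and 327 of all 15306 genes. Among the glycerol channels, Aqp11 had a log2 fold change of 0.87 (adjusted p = 0.0325) and Aqp9 -0.93 (adjusted p = 0.0159), both at low levels of at most 8.69 and 2.98 CPM, and Aqp7 had the highest level per length of this step. Pgp, which encodes a phosphatase that can release glycerol from glycerol 3-phosphate, rose by 1.24 (SE 0.09, adjusted p = 1.10e-05), with 1.20 in WT and 1.28 in HIF2α AKO.

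Of the other enzymes of the first acylation, Gpat4 (listed as Agpat6), which works in the endoplasmic reticulum, rose by 1.28 (adjusted p = 1.76e-05). Gpat3 (listed as Agpat9) rose by 0.81 (adjusted p = 0.0263), with 1.31 in WT (adjusted p = 0.0328) and 0.32 in HIF2α AKO (adjusted p = 0.532). Gpat3 is another gene that the study, with its looser limit, listed from these libraries, and its interaction was not called here (-0.99, adjusted p = 1.00). Gpat2 was called within HIF2α AKO at 1.35 (adjusted p = 0.0467), on 3 to 19 counts per HIF2α AKO library, and its interaction was not called (1.94, adjusted p = 1.00). Per length Gpam, Gpat3 and Gpat4 had 23.2, 24.0 and 22.4 CPM per kb at TN and 89.8, 42.2 and 54.3 in cold. In the second acylation, Agpat3 rose by 1.26 (adjusted p = 1.28e-04), Agpat1, whose span overlaps that of Egfl8, by 0.92 (adjusted p = 4.30e-05) and Agpat5 by 0.50 (adjusted p = 9.32e-04), whereas Agpat4 had -0.34 (adjusted p = 0.058). Agpat2 had the highest level per length of this step at both temperatures. Mogat1, whose enzyme makes diacylglycerol from monoacylglycerol, rose by 0.89 (adjusted p = 0.0134).

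**Figure D5:**
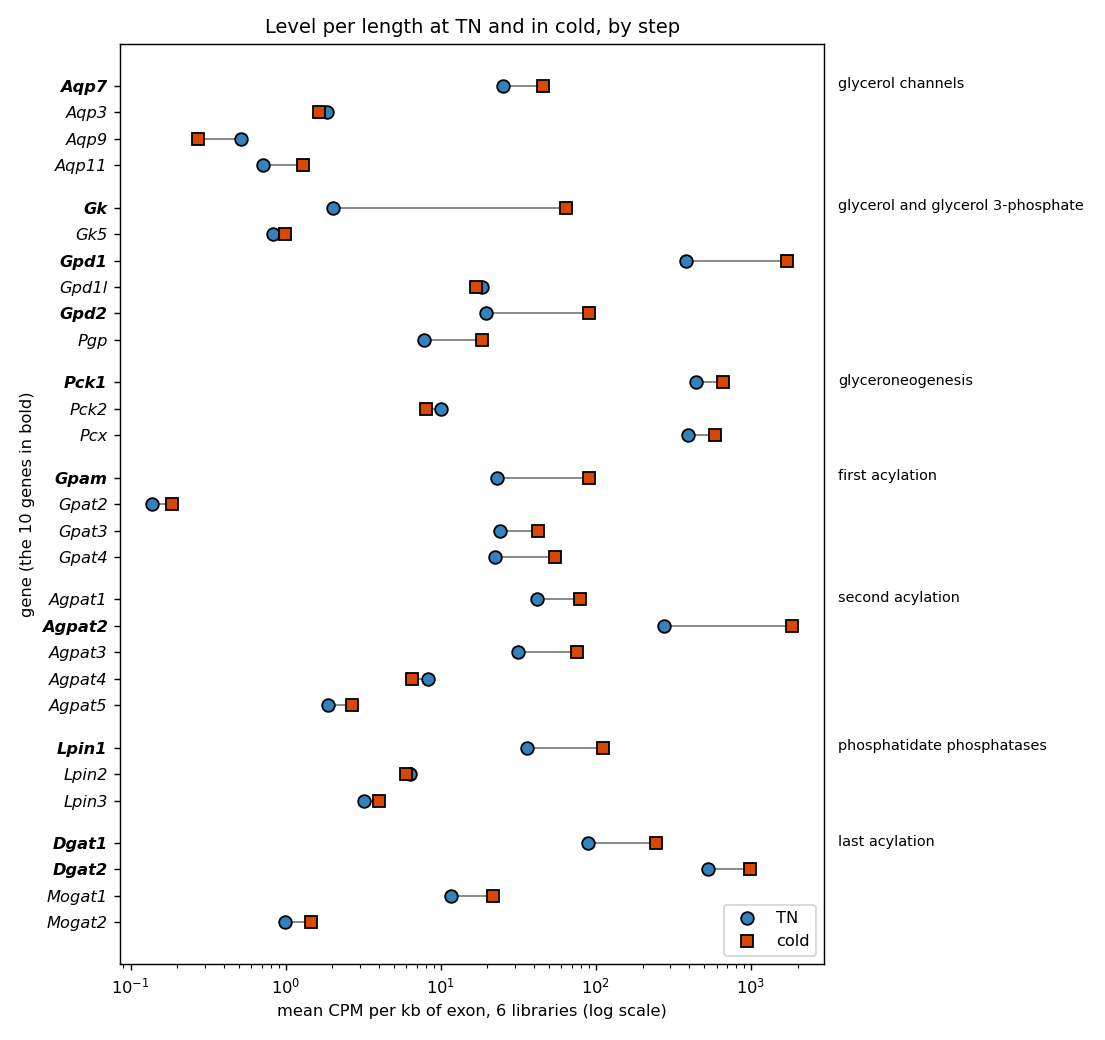
Mean CPM per kb of exon over the 6 libraries at TN (circles) and in cold (squares) is plotted on a log axis for the 10 genes (bold) and the other pathway genes with counts, grouped by step, with a line joining both temperatures. Gk moved from 2.01 to 64.0, and Agpat2 from 275 to 1848, the highest level plotted.

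The genes whose pattern over the 12 libraries was most like that of Gk were Hpdl, Cidea, Phospho1, Car14 and Slc25a34. Likeness was measured as the mean absolute difference of gene-centred log2 CPM over the 12 libraries, among 13144 genes with a mean count of at least 50, and it was 0.26 for Hpdl, 0.37 for Cidea and Phospho1, 0.49 for Car14 and 0.50 for Slc25a34. Cidea is one of 8 thermogenic markers, all of which were called higher in cold and which summed to between 28.4 and 90.6 CPM at TN and between 3350 and 8582 in cold. For Gpd1 the nearest of the 13144 genes was Gpd2, at 0.20, ahead of Tmem79, Sec14l4 and Krt79 (0.22 each) and Syt12 (0.24). Among the 10 genes themselves, Lpin1 and Dgat1 were nearest to each other at 0.23, Agpat2 was nearest to Gpd1 at 0.34, and Pck1 to Aqp7 at 0.36. Gpam (0.28) and Aqp7 (0.30) were nearest to Dgat1, and Dgat2 to Lpin1 (0.42). Gk had no near partner among them, since its nearest was Agpat2 at 1.04. The measure is not scaled by spread, so it largely follows the size of the change in cold. That change was 4.96 for Gk and 2.76 for Agpat2, the next largest of the 10. For the 5 genes nearest to Gk the difference in mean log2 CPM ran from 4.17 for Phospho1 to 5.43 for Slc25a34. The likeness values share libraries and depth and carry no test.

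Promoter windows of 300 bases were held for 7 of the 10 genes, in 10 entries, and the others were Gpd1, Dgat1 and Dgat2. Of all 32851 windows of this length in the RefSeq table, 19.6% held ACGTG on either strand and 7.51% held TGACGT. The first of these motifs was found for 3 of the 7 genes, which were Gk, Agpat2 and Gpd2, and the second for 3, which were Gk, Pck1 and Gpam. Each of these genes held the motif in 1 of the 10 entries. The shares are per window, and Gpd2, Aqp7 and Gpam have more than 1 entry, so the counts of genes are not compared with them. The windows of Aqp7 and Lpin1 held neither. These matches are letters in a sequence and no measure of binding. The matched stretches (GRCm38.p6, written 5′ to 3′ along the gene, with the match in capitals) begin 232 bases before the start for Agpat2 (chr2:26604633-26604661, minus strand), 170 for 1 of the entries of Gpd2 (chr2:57238200-57238228, plus strand) and 32 for 1 of the entries of Gpam (chr19:55099492-55099521, minus strand). That of Pck1, which did not pass the test in cold, is shown whole (chr2:173152823-173153122, plus strand), with its match 91 bases before the start.
Agpat2: tggcataatgggCACGTcttaggtcggtt
Gpd2: gcatggccagccCACGTccctgcgagacc
Gpam: ccggcagccccgACGTCActgccgcgcgcc
Pck1: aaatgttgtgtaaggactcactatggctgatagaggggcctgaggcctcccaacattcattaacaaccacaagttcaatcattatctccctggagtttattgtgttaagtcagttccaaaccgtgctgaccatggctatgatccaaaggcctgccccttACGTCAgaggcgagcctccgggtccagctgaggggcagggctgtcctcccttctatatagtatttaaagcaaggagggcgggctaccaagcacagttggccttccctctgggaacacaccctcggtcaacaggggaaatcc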

How the data were processed

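Per the labels, RNA of iWAT was sequenced from 12 mice, with 3 in each of 4 groups, and samples were grouped by their titles. The authors trimmed reads with Trim Galore 0.4.4, aligned them to GRCm38 with STAR 2.6.1d and deposited the count of reads per gene from HTSeq 0.13.5, without normalization. The annotation and strand setting are not given in the sources used here. The 5 tallies of reads outside genes (21.9 to 27.0% of each library) were left out. The depth, 22368316 to 35204631 counts on genes, puts the upper limit of a count of 0 at 3 counts, by counting error alone.

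The main test was edgeR 4.0.16 in R 4.3.3 (TMM, filterByExpr at a count of 10 and a total of 15, quasi-likelihood test, 1 factor of 4 groups), with Benjamini-Hochberg adjustment over 15306 genes and a limit of 0.05. The biological coefficient of variation was 0.202. Alternatives used DESeq2 1.42.0, limma 3.58.1 (voom with quality weights), other scaling, no filter, only the groups compared, each library left out, and a replicate block. Log2 CPM used a prior count of 2, and lengths and gene coordinates came from the GENCODE annotation of GRCm38. The scripts were tested on simulated data. Ratios, promoter motifs and likeness were computed with Python 3.11.15.

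The 10 genes, the pathway list and the markers were chosen with earlier results of these data known. The named genes are the 10, those of the pathway list with an adjusted p under 0.05 in any contrast or the highest level per length of their step, and the 5 genes nearest to Gk and to Gpd1. Gk2, Pcx, Lpin3 and Agpat4 were named after their values were seen. Of same-numbered libraries of different groups, 5 of 18 pairs had deviations correlated above 0.1 (r from -0.43 to 0.39), so the numbers were not taken to pair mice. The main p-values set a difference against the spread between libraries, estimated over all 4 groups together. The permutation p-values count arrangements of the temperature labels.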

Additional observations from a re-analysis of the deposited data

How the results depend on the processing

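Of the 18 counts and ratios that answer a comparison, the number of the 10 genes called for cold was 6 to 8 in WT, 5 to 8 in HIF2α AKO and 8 or 9 with the genotypes averaged, and it stayed at 0 for genotype and interaction. The replicate block moved none of these counts by over 1.5 times. Over all the settings, the share of all genes called for cold ran from 8.91 to 30.6% in WT and from 10.4 to 40.1% in HIF2α AKO. With the genotypes averaged it ran from 31.8 to 54.6%, and for genotype and interaction it was at most 0.0979%. Under the block, which pairs libraries that share only a number, the ratios of Gk to Pck1 (4.30) and Gk to Aqp7 (4.02) kept their values, and their adjusted exact permutation p was 0.0625 by construction, since only 6 pairs are available. For the other pathway genes in WT the count of 8 was 4 with edgeR on the groups compared only, and 4 to 9 with each library left out. It was 4 when TN WT replicate 2 or cold WT replicate 3 was left out and 5 when TN WT replicate 1 or cold WT replicate 1 was. The share of all genes called in WT, 21.3% in the main test, was 11.7% on the groups compared only. With those libraries left out it was 8.91, 9.47, 11.7 and 16.4%, in the order named. In the other comparisons with cold the count was 4 to 7 in HIF2α AKO and 6 to 11 averaged. The lowest averaged count was without both low TN libraries, an alternative chosen after seeing the data. Without these libraries, the count was 4 in WT, where 10.2% of all genes were called. The ratio of Dgat2 to Dgat1 was then -0.84 and that of Gpd1 to Gpd2 was -0.16. The latter ratio was -0.020 to 0.18 with each library left out. Genotype differences that no test called also changed sign, and the cause was not tested. In cold Dgat2 was 0.15 with limma voom and 0.0074 with the replicate block, and leaving out 1 library gave -0.28 to 0.27 for Dgat2, -0.019 to 0.59 for Pck1, -0.066 to 0.50 for Gpam and -0.062 to 0.24 for Dgat1. At TN, Pck1 was -0.047 with limma voom and -0.14 without both low TN libraries, where Aqp7 was -0.11. Leaving out 1 library at TN gave -0.011 to 0.18 for Gk, -0.065 to 0.53 for Gpd2, -0.22 to 0.46 for Aqp7, -0.038 to 0.62 for Pck1, -0.015 to 0.30 for Gpam and -0.090 to 0.82 for Agpat2. With 3 libraries a group, the SE of the genotype difference in cold ran from 0.23 for Gk to 0.60 for Dgat2, which limits the differences that could be detected.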
